A study of Mus musculus with 10 samples.

Results

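The genes described here encode 7 secreted or surface-released antimicrobial proteins of the gut mucosa, Retnlb, Ang4, Zg16, Lypd8, Itln1, Lyz1 and Pla2g2a. They were taken by symbol from a table of 55487 genes, and each symbol matched a single row. The table holds RNA of intestinal epithelial cells (IECs) from the colon of 5 WT and 5 RhoB-/- mice, both on the C57BL/6J background. The labels number the libraries as replicates and do not say that each came from a separate mouse, so the p-values measure the spread between these libraries. No treatment is given for either group, and the methods of the study state an age of 6 to 8 weeks unless noted otherwise. RhoB-/- mice lack both functional copies of Rhob, which encodes a small GTPase, in all cells. The methods name a supplier for WT males other than the center that made the knockout, and another experiment of the study used littermates. Which WT mice gave these libraries is not stated, so that a difference in the origin of the mice, if there was one, cannot be told apart from genotype.

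Antimicrobial proteins of the mucosa are released by epithelial cells into the mucus, where they kill bacteria or keep them away from the cell surface. Goblet cells of the colon make several of them together with the mucins. Paneth cells, which make lysozyme and defensins, belong to the small intestine and are normally scarce in mouse colon. In bulk RNA, a change in the number of producing cells and a change in the RNA made per cell cannot be told apart.

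The values are TPM, which give a transcript's share of its library corrected for gene length, so that levels of different genes may be compared. The depth behind a TPM value is unknown, and no counting error can be given. Differences in log2(TPM + 1) were tested with limma for the 12870 genes averaging 1 TPM or more, with Benjamini-Hochberg adjustment over all of them, and a gene was called at an adjusted p below 0.05. The epithelial markers Epcam, Cdh1, Krt8, Krt18, Krt19 and Vil1 summed to 9032 to 10407 TPM in WT and 8518 to 13442 TPM in RhoB-/- libraries. Rhob itself had 170.5 to 388.7 TPM in WT libraries and 0.09 to 0.57 TPM in RhoB-/- replicates 1 to 4. The library labelled RhoB-/- replicate 5 had 110.9 TPM of Rhob. The fold changes of the antimicrobial genes that were called are therefore also given without it. The means and sums of the marker genes include it.

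In RhoB-/- mice, 4 of the 6 tested antimicrobial genes were higher than in WT mice and none was called lower. Ang4, Retnlb and Itln1 were 14.5, 14.1 and 17.2 times as high by mean TPM, and Lypd8 3.08 times. Zg16 differed by less than the spread between libraries, Pla2g2a did not pass the adjusted threshold, and Lyz1 was below the TPM filter. Over all tested genes, 7.73% were called higher and 13.5% lower, 21.2% in all. The 4 genes also had every RhoB-/- value above every WT value, which held for 5.97% of all tested genes, and 8.55% lay wholly below. The median log2 fold change was -0.13, so that a typical gene was slightly lower in RhoB-/- mice. When libraries were centred on the median of their deviations from the gene means, 2010 genes were called higher and 1645 lower, against 995 and 1734 on the deposited scale, and with quantile normalization 1587 were higher and 1975 lower. Without mitochondrial genes the counts were 1101 and 3729, relative to the goblet cell markers 753 and 2979, and relative to the surface colonocyte markers 283 and 10368. The same 4 antimicrobial genes were higher under each of these scalings.

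**Figure D1:**
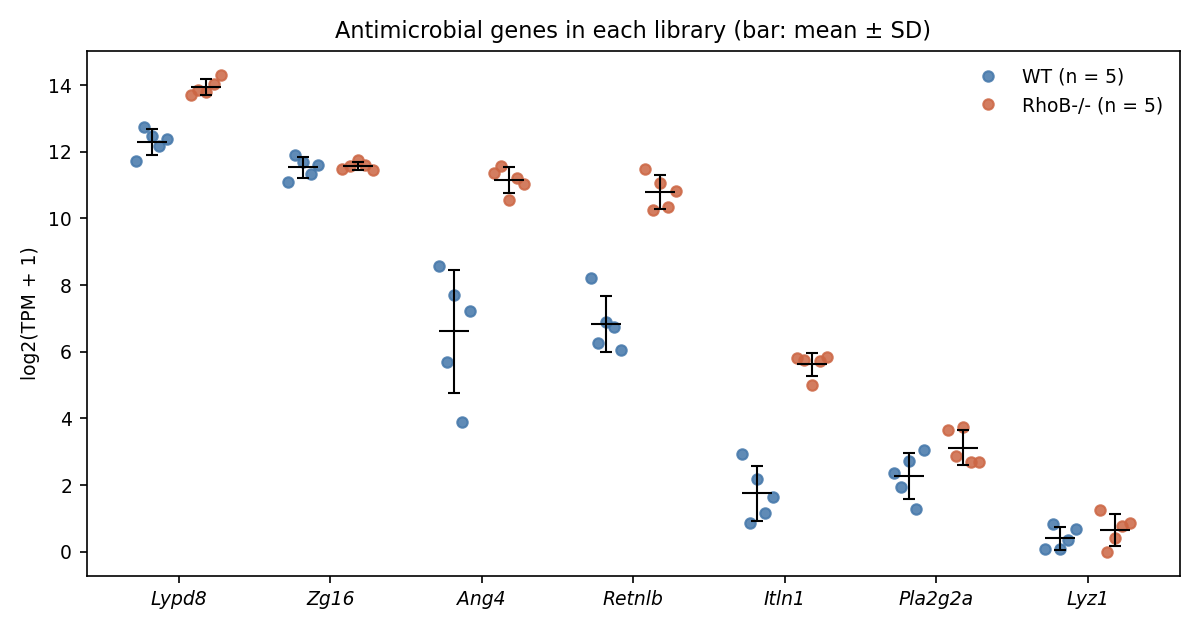
Level of the 7 antimicrobial genes in each library as log2(TPM + 1), with WT mice in blue and RhoB-/- mice in orange (n = 5 each) and black bars for the mean ± SD. The groups do not overlap for Lypd8, Ang4, Retnlb and Itln1, and they overlap for Zg16, Pla2g2a and Lyz1.

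The sequences just upstream of Ang4, Itln1 and Lypd8 are shown because these genes rose together and have a RefSeq promoter entry. Entries were found for these genes and Lyz1, 4 of the 7. Each sequence is the 250 bases before the RefSeq start on GRCm38.p6, written 5′ to 3′ in the direction of the gene, with matches to the motifs named below in capitals. Ang4 lies on the minus strand at chr14:51773591-51773840, Itln1 on the minus strand at chr1:171535295-171535544, and Lypd8 on the plus strand at chr11:58378782-58379031.
Ang4: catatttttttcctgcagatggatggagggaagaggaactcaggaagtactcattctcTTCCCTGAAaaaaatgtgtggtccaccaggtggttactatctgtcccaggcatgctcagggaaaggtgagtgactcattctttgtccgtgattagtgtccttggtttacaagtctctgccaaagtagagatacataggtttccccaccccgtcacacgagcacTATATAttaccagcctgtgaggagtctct
Itln1: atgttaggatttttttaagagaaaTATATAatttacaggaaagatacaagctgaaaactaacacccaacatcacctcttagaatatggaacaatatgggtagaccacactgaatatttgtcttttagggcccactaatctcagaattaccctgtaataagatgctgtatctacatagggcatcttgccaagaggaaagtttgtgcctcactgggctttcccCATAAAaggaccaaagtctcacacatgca
Lypd8: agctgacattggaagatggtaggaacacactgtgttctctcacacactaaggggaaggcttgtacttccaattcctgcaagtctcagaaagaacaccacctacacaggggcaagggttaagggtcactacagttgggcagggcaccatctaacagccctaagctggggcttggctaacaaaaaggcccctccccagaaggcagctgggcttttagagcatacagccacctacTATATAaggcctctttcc
The motifs were searched on both strands. The TATA box TATAAA had no match in these windows, and 12.4% of the 32851 mouse promoter windows of this length have one. The letters TATATA (5.25% of windows) and CATAAA (10.8%) were added after the windows had been read. TATATA lies from -29 to -24 in Ang4, from -18 to -13 in Lypd8 and from -226 to -221 in Itln1, counted from the RefSeq start, and CATAAA from -29 to -24 in Itln1. The STAT motif TTCNNNGAA (7.02% of windows) was found in Ang4 from -192 to -184 and in neither of the others. The STAT6 motif (5.85% of windows), the interferon response motif ISRE (2.98%) and the HNF4 motif CAAAGTCCA (0.384%) had no match in the windows of Ang4, Itln1 and Lypd8. RefSeq gives Lypd8 a second start, whose window at chr11:58380396-58380645 lies inside the gene and holds none of the motifs. TATATA is thus found in the printed windows only, at different distances from the RefSeq starts. For Lypd8 the distance depends on the start used, which RefSeq places at 58379032 and GENCODE further downstream at 58379043. These matches describe the letters only and are not evidence of binding.

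Retnlb (ENSMUSG00000022650, chromosome 16, 48816856 to 48818892, plus strand, 4 exons) encodes resistin-like molecule beta, a goblet cell protein that kills bacteria by damaging their membranes. Its TPM was 297.5, 75.2, 118.0, 105.4 and 66.0 in WT replicates 1 to 5, and 2884, 1208, 2121, 1304 and 1822 in RhoB-/- replicates 1 to 5. Every RhoB-/- library lay above every WT library, and the lowest RhoB-/- value was 4.06 times the highest WT value. WT libraries averaged 132.4 ± 94.7 TPM and RhoB-/- libraries 1868 ± 680.5 TPM (n = 5 each, SD), and by limma the log2 fold change was 3.96 with a standard error of 0.37 and an adjusted p = 2.91e-05. Retnlb held rank 23 of the 12870 genes by fold change and moved from rank 788 to rank 51 of all genes by mean level. WT replicate 1 stood above the other 4 WT libraries, and without it the log2 fold change was 4.31 (adjusted p = 3.26e-06, limma).

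Ang4 (ENSMUSG00000060615, chromosome 14, 51763878 to 51773590, minus strand, 2 exons) encodes angiogenin 4, a microbicidal ribonuclease of Paneth and goblet cells. Its TPM was 378.5, 50.8, 209.2, 13.96 and 148.8 in the WT replicates, and 2657, 3034, 1499, 2376 and 2089 in the RhoB-/- replicates. The WT libraries were widely spread, 27.1-fold from the lowest to the highest, whereas the RhoB-/- libraries spanned 2.02-fold and lay wholly above them. WT libraries averaged 160.3 ± 144.5 TPM and RhoB-/- libraries 2331 ± 581.8 TPM (n = 5 each, SD), and by limma the log2 fold change was 4.53 with a standard error of 0.69 and an adjusted p = 0.00112. It held rank 10 by fold change among the tested genes but rank 337 by p, its standard error being the widest of the 6. WT replicates 4 and 2 were the low ones, and WT replicate 1 was again the highest.

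Itln1 (ENSMUSG00000038209, chromosome 1, 171518122 to 171535294, minus strand, 8 exons) encodes intelectin 1, a lectin that binds sugars of microbial cell walls. Its TPM was 6.68, 0.81, 3.52, 1.24 and 2.14 in the WT replicates, and 55.0, 52.6, 31.1, 52.3 and 56.6 in the RhoB-/- replicates. Itln1 was thus close to the filter limit in WT mice and clearly expressed in each RhoB-/- library, with RhoB-/- replicate 3 below the other 4. WT libraries averaged 2.88 ± 2.36 TPM and RhoB-/- libraries 49.5 ± 10.4 TPM (n = 5 each, SD), and by limma the log2 fold change was 3.87 with a standard error of 0.34 and an adjusted p = 1.45e-05. On the log2(TPM + 1) scale this change is understated, because the WT values are low, and with a pseudocount of 0.1 it was 4.39.

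Lypd8 (ENSMUSG00000013643, chromosome 11, 58379043 to 58390728, plus strand, 7 exons) encodes a protein of the colonic surface epithelium that is shed into the lumen and binds the flagella of bacteria. Its TPM was 3348, 6889, 5678, 4589 and 5389 in the WT replicates, and 13357, 14848, 14241, 16864 and 20395 in the RhoB-/- replicates. The groups did not overlap, and the lowest RhoB-/- value was 1.94 times the highest WT value. WT libraries averaged 5179 ± 1315 TPM and RhoB-/- libraries 15941 ± 2804 TPM (n = 5 each, SD), and by limma the log2 fold change was 1.65 with a standard error of 0.20 and an adjusted p = 2.14e-04. Its fold change was smaller than those of the preceding 3 genes, but its change in level was the largest of the 7. Leaving out mitochondrially encoded genes, Lypd8 was at rank 8 of all genes by mean TPM in WT and at rank 7 in RhoB-/- mice.

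The remaining 3 genes did not pass the test. Zg16 (ENSMUSG00000049350, chromosome 7, 127050156 to 127087328, minus strand) encodes a goblet cell lectin that binds peptidoglycan of Gram-positive bacteria and aggregates them in the mucus. Its TPM was 2188, 3857, 3312, 2573 and 3142 in the WT replicates, and 2866, 3018, 3478, 3144 and 2823 in the RhoB-/- replicates. The RhoB-/- values all lay within the range of the WT values, with means of 3014 ± 650.6 and 3066 ± 263.0 TPM (SD, n = 5 each) and by limma the log2 fold change was 0.05 with a standard error of 0.16 and an adjusted p = 0.85. Its sign depended on the scaling, at -0.01 with quantile normalization and -0.03 relative to the goblet cell markers, and relative to the surface colonocyte markers Zg16 was called lower, at -0.64 (adjusted p = 0.00733, limma).

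Pla2g2a (ENSMUSG00000058908, chromosome 4, 138831857 to 138835186, plus strand) encodes a secreted phospholipase that attacks bacterial membranes, and C57BL/6 mice carry an inactivating mutation in it. The annotation of this strain's genome lists it as a polymorphic pseudogene, so the TPM here is that of a transcript without a working protein. Its TPM was 4.10, 2.84, 5.67, 1.45 and 7.36 in the WT replicates, and 11.5, 6.28, 12.4, 5.51 and 5.43 in the RhoB-/- replicates. RhoB-/- replicates 1 and 3 lay above the WT range and the other 3 within it, and by limma the log2 fold change was 0.85 with a standard error of 0.33 (adjusted p = 0.0837). The exact permutation test of the same difference gave p = 0.0794, two-sided. At the study's threshold (fold change above 1.5 and p below 0.05 without adjustment), Pla2g2a was also higher, which makes 5 of the 6 genes, where 6.37% of all tested genes were higher and 8.33% lower. Relative to the surface colonocyte markers, its log2 fold change was 0.16 (adjusted p = 0.671, limma).

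Lyz1 (ENSMUSG00000069515, chromosome 10, 117287797 to 117292868, minus strand) encodes the lysozyme of Paneth cells, which cleaves bacterial cell walls. Its TPM was 0.06, 0.77, 0.06, 0.27 and 0.60 in the WT replicates, and 1.37, 0.00, 0.33, 0.71 and 0.82 in the RhoB-/- replicates. The groups overlapped, and the difference of mean log2(TPM + 1) was 0.26 (exact permutation test, two-sided, p = 0.325).

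The spread differed between the genes. In WT mice, the coefficient of variation of TPM was 71.5% for Retnlb, 90.2% for Ang4 and 82.2% for Itln1, but 21.6% for Zg16 and 25.4% for Lypd8. In RhoB-/- mice it was 36.4%, 25.0% and 21.1% for the first 3 genes and 8.58% and 17.6% for the others. WT replicate 1 had the highest Retnlb, Ang4 and Itln1 of the WT libraries and the lowest Zg16 and Lypd8. It also had the highest share of mitochondrial TPM, 26.5% against 10.3% to 22.4% in the other 9 libraries, whose part in these values was not tested. With mitochondrial genes left out and TPM rescaled, the 4 called genes remained called. Without the library labelled RhoB-/- replicate 5, the log2 fold changes were 3.95 for Retnlb, 4.56 for Ang4, 3.82 for Itln1 and 1.55 for Lypd8 (adjusted p from 9.03e-05 to 0.00354, limma). Without WT replicate 1 and the library labelled RhoB-/- replicate 5 together, the log2 fold changes were 4.30 for Retnlb, 5.04 for Ang4, 4.11 for Itln1 and 1.41 for Lypd8 (adjusted p from 2.18e-05 to 0.00197, limma).

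In both genotypes Lypd8 was the most abundant of the 7 genes and Lyz1 the least. In WT mice the order by mean TPM was Lypd8, Zg16, Ang4, Retnlb, Pla2g2a, Itln1 and Lyz1. Lypd8 exceeded Zg16 in 5 of 5 WT libraries although their ranges overlapped, and Ang4 exceeded Retnlb in 3 of 5, also with overlapping ranges. In RhoB-/- mice Itln1 stood above Pla2g2a in 5 of 5 libraries, whereas in WT mice Pla2g2a stood above Itln1 in 4 of 5. Ang4 and Retnlb approached Zg16 in RhoB-/- mice, Zg16 exceeding Ang4 in 4 of 5 libraries with overlapping ranges.

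The 7 genes together took 0.627% to 1.10% of the TPM of WT libraries and 2.15% to 2.75% of RhoB-/- libraries. The groups did not overlap in this sum, and Lypd8 made up 53.8% to 63.3% of it in WT and 61.2% to 75.0% in RhoB-/- libraries.

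**Figure D2:**
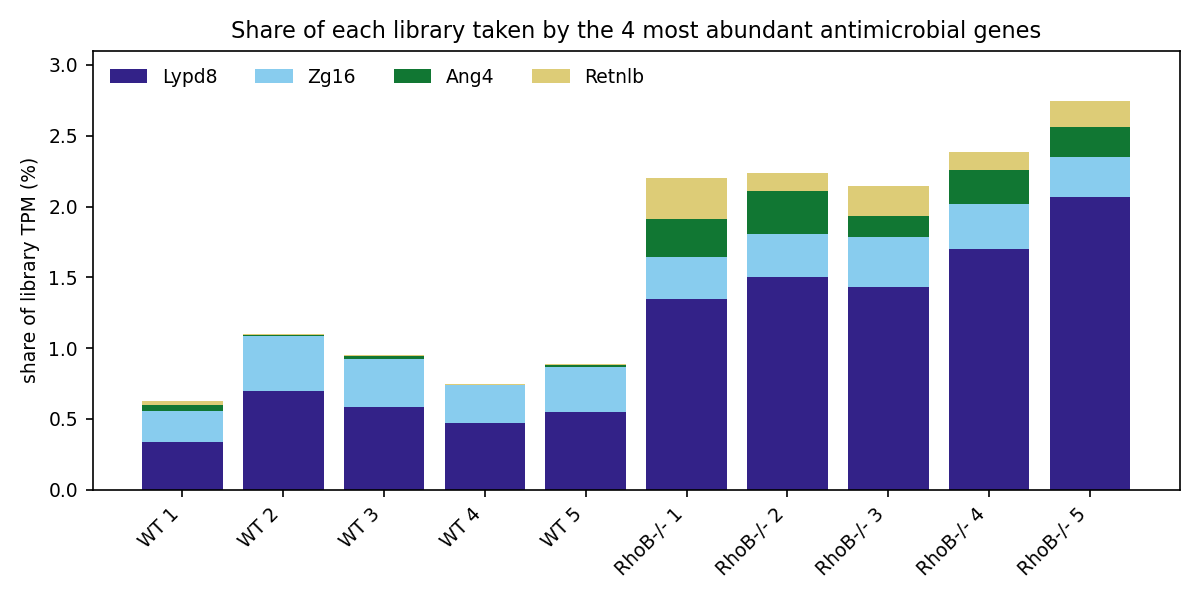
Share of total TPM in each of the 10 libraries taken by Lypd8, Zg16, Ang4 and Retnlb, as stacked bars from 0. Lypd8 accounts for most of every bar, the Zg16 band varies between libraries with like group means, and the Ang4 and Retnlb bands are visible mainly in the RhoB-/- libraries.

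Close relatives of the genes were examined because reads could be shared between them and because a family may move as a whole. Of the 679 stretches of 31 bases in the Ang4 transcript, 9.28% also occur in Ang5, 3.53% in Ang2, 3.09% in Ang6 and 0.147% in Ang. Values of its ribonuclease relatives on the same chromosome follow. Ang5 and Ang6 were at 0 in both groups, and Ang2 had 0 in WT and 0.018 mean TPM in RhoB-/- libraries. Ang had 29.6 ± 4.602 TPM in WT libraries against 39.8 ± 4.73 TPM in RhoB-/- libraries (n = 5 each, SD), and limma gave a change of 0.42 on the log2 scale (adjusted p = 0.0319), with overlapping groups. Rnase4, whose locus overlaps that of Ang, had 96.5 ± 8.94 and 98.3 ± 14.7 TPM (SD, n = 5 each; log2 fold change 0.02, adjusted p = 0.936, limma). The ratio of Ang4 to Ang was 0.524 to 15.1 in WT and 31.7 to 87.4 in RhoB-/- libraries.

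Of the resistin-like relatives of Retnlb, which share none of its 31-base stretches, Retnla had 0.474 ± 0.378 and 2.11 ± 1.83 TPM (SD, n = 5 each; log2 fold change 0.96, adjusted p = 0.057, limma). Retnlg was below the filter, at 0.034 and 0.238 mean TPM. Of the Lyz1 transcript, 34.2% of the 31-base stretches occur in Lyz2, the lysozyme of macrophages, so that reads may be split between these neighbours. Lyz2 had 0.868 ± 0.493 and 2.40 ± 1.36 TPM (SD, n = 5 each; log2 fold change 0.81, adjusted p = 0.0676, limma). Among the phospholipases near Pla2g2a on chromosome 4, Pla2g2f was lower in RhoB-/- mice, at 9.70 ± 2.67 and 5.44 ± 2.45 TPM (SD, n = 5 each; log2 fold change -0.77, adjusted p = 0.0375, limma), and Pla2g5 had -0.12 on the log2 scale (limma, adjusted p = 0.745).

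**Figure D3:**
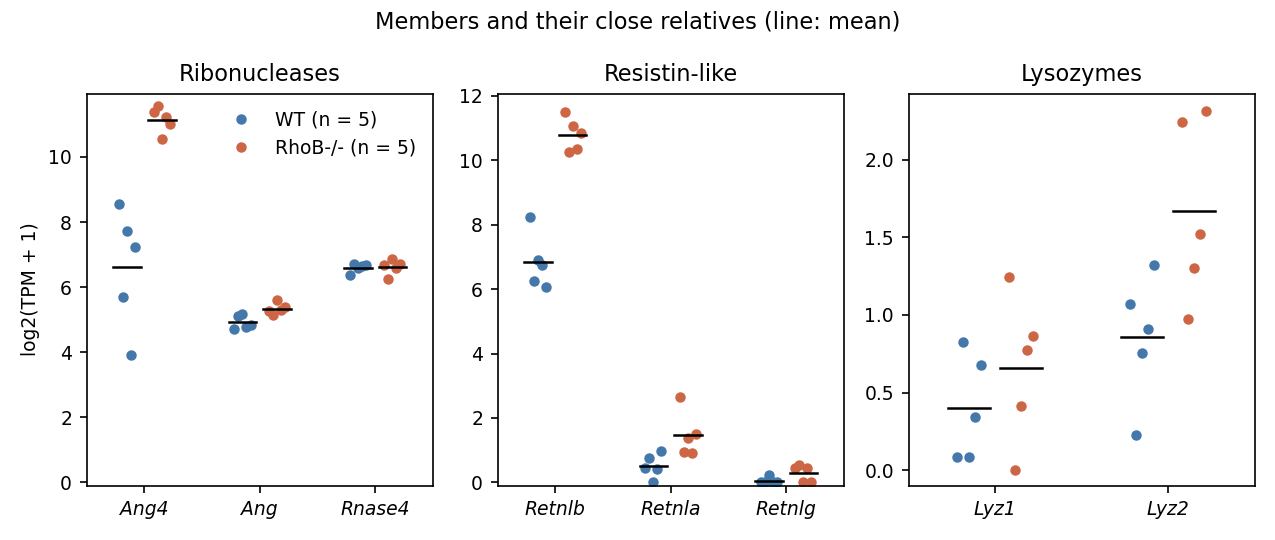
Ang4, Retnlb and Lyz1 beside their relatives in each library, as log2(TPM + 1), with WT in blue, RhoB-/- in orange (n = 5 each) and lines at the means. Ang4 and Retnlb separate the genotypes by several log2 units, while Rnase4 and Lyz1 overlap and the y axis differs between the panels.

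Markers of the cells that make these proteins did not move together. Of 17 goblet cell markers other than Zg16, 3 were higher (Fcgbp, Clca1 and Spink4) and 3 lower (Ern2, Creb3l4 and Klk1) in RhoB-/- mice. Of all tested genes, 7.73% were higher and 13.5% lower. The other 11 goblet cell markers were not called, and the median log2 fold change of the list was 0.05. Muc2, the main secreted mucin of these cells, had 4981 ± 1239 TPM in WT libraries against 4294 ± 628.6 TPM in RhoB-/- libraries (n = 5 each, SD; log2 fold change -0.19, adjusted p = 0.474, limma). Clca1, a protein of the goblet cell mucus, had 725.7 ± 245.6 and 2641 ± 926.6 TPM (SD, n = 5 each; log2 fold change 1.87, adjusted p = 0.00164, limma). The summed TPM of the list was 12476 to 15135 in WT and 14289 to 17287 in RhoB-/- libraries. The ratio of Retnlb to Muc2 was 0.0159 to 0.0494 in WT and 0.261 to 0.644 in RhoB-/- libraries, and that of Zg16 to Muc2 was 0.363 to 0.881 and 0.628 to 1.06. When each library was centred on the goblet cell markers, the log2 fold changes were 3.88 for Retnlb, 4.45 for Ang4, 3.79 for Itln1 and 1.57 for Lypd8, and all 4 remained called.

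Markers of surface colonocytes, the cells that make Lypd8, were higher in part. Of 11 such markers, 6 were higher (Car4, Aqp8, Krt20, Ceacam1, Ceacam20 and Tmigd1), 0 lower and 5 not called. Of all tested genes, 7.73% were higher and 13.5% lower. The median log2 fold change of the colonocyte markers was 1.10 against -0.13 for all tested genes. Car1, a carbonic anhydrase and the most abundant of them, had 12755 ± 2243 and 17151 ± 5027 TPM (SD, n = 5 each; log2 fold change 0.39, adjusted p = 0.203, limma). Their summed TPM was 16830 to 25367 in WT and 21310 to 38352 in RhoB-/- libraries, with overlapping ranges. Centred on these markers, the log2 fold change of Lypd8 was 0.95 (adjusted p = 6.57e-04, limma), while those of Retnlb, Ang4 and Itln1 were 3.27, 3.83 and 3.18. The part of these cells in the level of Lypd8 was not tested.

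The defining Paneth cell defensins were at or near 0. Defa24 and Defa17 were listed at 0 in every WT library and had means of 0.456 and 0.238 TPM in RhoB-/- mice, and 6 of the 11 listed Paneth genes were at 0 in all 10 libraries. Of the 2 tested genes of this list, Mmp7, a protease that activates defensins, had 1.02 and 1.35 mean TPM (adjusted p = 0.679, limma). Pnliprp2, a lipase, rose from 1.04 ± 0.458 to 20.9 ± 9.29 TPM (SD, n = 5 each; log2 fold change 3.34, limma), and its groups did not overlap. Immune cell markers were low, at a summed 6.48 to 10.5 TPM over 10 genes in WT and 19.6 to 37.5 TPM in RhoB-/- libraries. The highest sum was in the library labelled RhoB-/- replicate 5, which had 7.39 TPM of Cd68. Ptprc, Cd3e and Cd3g, which averaged over 1 TPM in WT libraries too, were higher, with Ptprc, the pan-leukocyte marker, at 1.97 ± 0.571 and 5.92 ± 2.28 TPM (SD, n = 5 each; log2 fold change 1.18, adjusted p = 0.00321, limma). Cd8a and Cd68 were also called higher but passed the filter through their RhoB-/- values (0.832 and 0.988 mean TPM in WT), and relative to the surface colonocyte markers 0 immune markers were higher. The part of immune cells in the levels of the antimicrobial genes was not tested.

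Markers of further cell types also moved in part. Among small intestine markers, Fabp2, a fatty acid binding protein, was higher at 739.6 ± 108.2 and 1155 ± 323.7 TPM (SD, n = 5 each, log2 fold change 0.60, adjusted p = 0.049, limma). Fabp6, an ileal bile acid binding protein, had 9.22 and 13.1 mean TPM (adjusted p = 0.214, limma), Apoa1, an apolipoprotein, 0.204 and 0.38, and Apoa4 0.016 and 0.08. Lower means in RhoB-/- mice were found for Anpep (3.12 and 2.73, adjusted p = 0.824, limma), Sis (1.15 and 0.748) and Lct (0.022 and 0.018). The 7 genes of that list summed to 639.2 to 924.5 TPM in WT and 727.6 to 1511 TPM in RhoB-/- libraries. Fabp2 alone had 625.2 to 901.4 and 709.1 to 1489 TPM. Of 3 tested tuft cell markers, Trpm5, an ion channel, and Avil were higher (log2 fold changes 0.78 and 0.81), Dclk1 was not called (0.61), and the list summed to 4.41 to 12.1 and 8.98 to 14.1 TPM. Of 3 tested stroma markers, Dcn, which encodes decorin, was higher, at 2.02 ± 0.193 and 9.74 ± 8.80 TPM (SD, n = 5 each; log2 fold change 1.505, adjusted p = 0.0202, limma), while Col1a1 was below the filter at 0.188 and 0.568 mean TPM. Col3a1 and Col6a1 were not called (log2 fold changes 0.60 and 0.69). Also below the filter were Pecam1 (0.974 and 0.986 mean TPM), Acta2 (0.16 and 0.152), Des (0.038 and 0.04) and Pdgfra (0.04 and 0.026). The stroma list summed to 4.39 to 5.39 TPM in WT and 6.44 to 40.0 TPM in RhoB-/- libraries. The highest sum was in the library labelled RhoB-/- replicate 5, which had 24.5 TPM of Dcn. Of 5 deep crypt secretory markers, Spink4 was higher and Cd24a lower (log2 fold change -0.52). Reg4 (0.68), Agr2 (-0.59) and Kit (-0.39) were not called, and the median log2 fold change of the list was -0.39. The sums were 4157 to 5383 TPM in WT and 4274 to 8104 TPM in RhoB-/- libraries. The highest was RhoB-/- replicate 3, which had 4797 TPM of Spink4. Vil1, an actin-bundling protein of the brush border, was the called one of 6 epithelial markers, and higher (log2 fold change 0.65). The part of these cells in the levels of the antimicrobial genes was not tested.

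Other secreted defence genes were called in both directions, more of them higher than lower. Of 50 listed genes, 47 were in the table and 30 passed the TPM filter, of which 12 were higher, 3 lower and 15 not called in RhoB-/- mice. Over all tested genes, 7.73% were called higher and 13.5% lower. The median log2 fold change was 0.60 for the defence genes against -0.13 for all tested genes. The higher genes were Reg3b, Ang, Slpi, Pglyrp1, Sprr2a1, Sprr2a2, Sprr2a3, Saa1, Saa2, Saa3, Nos2 and Lgals9. Saa1, a serum amyloid A protein, had 358.8 ± 153.4 and 1899 ± 454.6 TPM (SD, n = 5 each; log2 fold change 2.49, adjusted p = 2.32e-04, limma). Saa3 had 1.84 ± 1.04 and 48.5 ± 31.1 TPM (log2 fold change 3.95). Reads of Sprr2a1, Sprr2a2 and Sprr2a3, which are near-identical copies, may be split between them.

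Reg3b, a lectin that kills Gram-negative bacteria, was higher with overlapping groups (log2 fold change 2.25, adjusted p = 0.0403, limma). Its TPM was 223.4, 91.7, 333.2, 155.5 and 280.6 in the WT replicates and 3131, 247.6, 2219, 261.5 and 1652 in the RhoB-/- replicates. RhoB-/- replicates 2 and 4 stayed within the WT range for Reg3b, while their Ang4 was 3034 and 2376 TPM, above every WT library. Reg3g, of the same family, had 107.4 ± 37.9 and 420.0 ± 399.2 TPM (SD, n = 5 each). It was not called (log2 fold change 1.28, adjusted p = 0.209, limma), and RhoB-/- replicates 2 and 4 had 53.7 and 76.7 TPM of it. Pglyrp1, a peptidoglycan recognition protein, had 221.0 ± 31.8 and 366.3 ± 79.3 TPM (SD, n = 5 each; log2 fold change 0.71, adjusted p = 0.00974, limma). The lower genes were Wfdc2, Pla2g2f and Lypd6b, and of these Wfdc2, a protease inhibitor, fell from 211.5 ± 63.3 to 84.7 ± 32.4 TPM (SD, n = 5 each; log2 fold change -1.34, adjusted p = 0.00429, limma). The number of lower genes was 1 with quantile normalization.

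Of 30 genes that act upstream of these proteins, cytokines, receptors and transcription factors, 24 were tested. Over all tested genes, 7.73% were higher and 13.5% lower in RhoB-/- mice. Among these regulators 5 were higher (Il4ra, Il22ra1, Tlr4, Tlr2 and Cdx2), 2 were lower (Foxa2 and Sox9) and 17 were not called. Their median log2 fold change was 0.28. The count of higher ones depended on the scaling, at 11 centred on the median deviation, 9 with quantile normalization, 8 without mitochondrial genes and 8 without RhoB-/- replicate 2, and relative to the surface colonocyte markers 1 was higher and 12 lower. Il4ra, a receptor chain for interleukins 4 and 13 that induce Retnlb, had 7.38 ± 0.790 and 14.8 ± 4.35 TPM (SD, n = 5 each; log2 fold change 0.88, adjusted p = 0.00557, limma). Il13 itself was at 0 in both groups, and Il4 had 0.044 and 0.042 mean TPM. Il13ra1, a further receptor chain, had 25.5 and 26.4 mean TPM and was not called (log2 fold change 0.04, adjusted p = 0.854, limma). Il22ra1, a receptor chain for interleukin 22, had 11.4 ± 2.14 and 20.2 ± 5.001 TPM (log2 fold change 0.76, adjusted p = 0.00728, limma), and Il22 itself had 0 and 0.07 mean TPM. The goblet cell factors Spdef and Atoh1 had log2 fold changes of 0.05 each (adjusted p = 0.85 and 0.853, limma), and Stat6 had 0.28 (adjusted p = 0.167, limma). Sox9, a crypt factor, fell from 23.2 ± 4.43 to 9.77 ± 1.62 TPM (SD, n = 5 each; log2 fold change -1.16, adjusted p = 2.49e-04, limma).

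**Figure D4:**
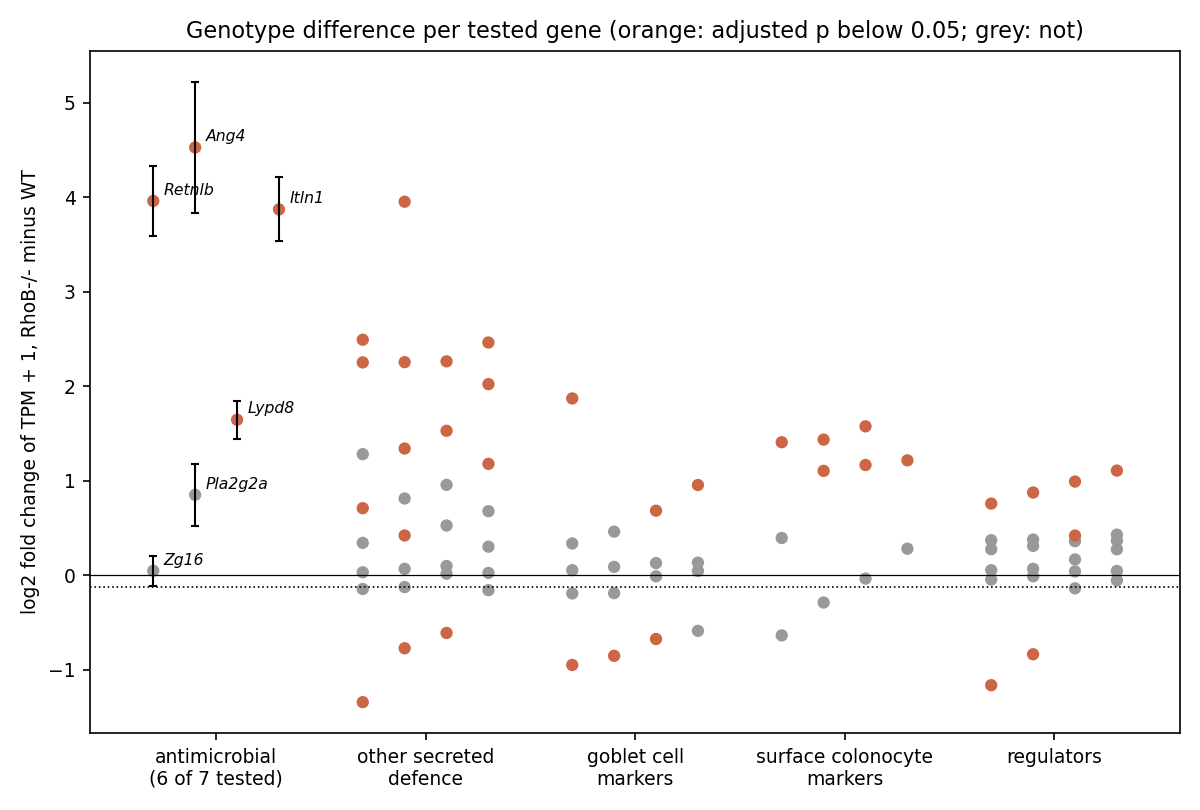
Log2 fold change of TPM + 1 (RhoB-/- minus WT) for every tested gene of 5 groups, orange where the adjusted p was below 0.05 and grey where it was not, with standard errors and names for the antimicrobial genes. The dotted line is the median of all tested genes, -0.13, and Ang4, Retnlb and Itln1 lie between 3.87 and 4.53, above every goblet cell and colonocyte marker. Saa3, of the other secreted defence genes, lies in the same range at 3.95.

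The genes whose levels varied most like each antimicrobial gene between libraries of one genotype were found by the Pearson correlation of log2(TPM + 1) over the 10 libraries, after the genotype means were removed, among genes averaging 10 TPM or more. For Lypd8 these were Ctss, Cdhr5 and Ythdf2 (r = 0.98, 0.96 and 0.95), and for Zg16 they were Ginm1, Rragc and Rnaset2b (r = 0.91 each). For Ang4 they were Selenbp2, mt-Co3 and Itln1 (r = 0.87, 0.86 and 0.82), and for Itln1 they were mt-Co3, mt-Nd3 and Slc3a1 (r = 0.91, 0.85 and 0.83). For Pla2g2a they were Pim3, Nudt22 and Foxd2 (r = 0.90, 0.79 and 0.78). For Retnlb they were n-R5s105, D17H6S53E and Gm22625 (r = 0.77, 0.77 and 0.72), of which n-R5s105 and Gm22625 were at 0 in 8 of 10 libraries. These are the highest of about 7010 values per gene and carry no p. Mitochondrial RNA is among the nearest for Ang4 and Itln1, and its part in their spread was not tested.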

How the data were processed

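Colonic IEC RNA of both genotypes, 5 libraries each, was read as pairs of 150 bp. For read trimming, the authors name SeqPrep and Sickle. Alignment used HISAT2, assembly StringTie, and gene quantification RSEM. Per the labels, the build was GRCm38.p6, and edgeR was among the tools named. The deposited TPM values, given by the authors to 2 decimals, were used. TPM is no count, so the quasi-likelihood test was not used.

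limma 3.58.1 (R 4.3.3, lmFit and eBayes with an intensity trend, genotype as the only term) was run on log2(TPM + 1), and tested on simulated data. The exact permutation test enumerates 252 labellings, with a smallest p of 0.00794. Gene positions are from GENCODE on GRCm38 and promoter sequences from RefSeq. The members and gene lists were chosen with earlier results of these data known. Named genes are the members, called list genes, first list genes, relatives and the 3 nearest genes by correlation. Spdef, Atoh1, Stat6, Mmp7, Defa17, Reg3g, Il4, Il13ra1 and Il22 fall outside this rule. So do the uncalled epithelial, small intestine, stroma and deep crypt markers after the first of each list. All of these were chosen after their values were seen. The alternatives tried are given in the closing section.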

Additional observations from a re-analysis of the deposited data

Results flagged for a closer look

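Among 108 groups of 5 values, 7 had 1 library standing apart, and about 5.4 would by chance. For the antimicrobial genes these were Retnlb at 297.51 TPM in WT replicate 1 and Itln1 at 31.09 TPM in RhoB-/- replicate 3. The library labelled RhoB-/- replicate 5 held 110.87 TPM of Rhob, and in it the 4 called antimicrobial genes lay among the other RhoB-/- values or above them. The others were Spink4 at 4796.51 TPM in RhoB-/- replicate 3, and Slpi at 2.25 TPM, Pglyrp1 at 276.37 TPM and Il22ra1 at 15.2 TPM in WT replicate 2.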

How the results depend on the processing

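Retnlb, Ang4, Itln1 and Lypd8 kept their direction and an adjusted p below 0.05 (limma) in all fits run, with log2 fold changes of 3.77 to 4.31, 3.85 to 5.01, 3.64 to 4.17 and 1.498 to 1.76 when each library was left out in turn. Zg16 was never called except relative to the colonocyte markers (-0.64, adjusted p = 0.00733, limma), which made 1 member lower. Its sign turned relative to the goblet cell markers (-0.029), with quantile normalization (-0.014), without mitochondrial genes (-0.028) and without both WT replicate 1 and RhoB-/- replicate 5 (-0.03), a setting chosen after seeing the data. Leaving out single libraries gave -0.060 to 0.14 for Zg16, with the sign turned without WT replicates 1 and 4, and 0.60 to 1.05 for Pla2g2a, whose adjusted p was 0.0458 without WT replicate 5 (limma) and which gave 0.16 relative to the colonocyte markers. The labels do not say whether the replicate numbers pair the libraries. Correlations were -0.09 to 0.07 for same-numbered libraries of the 2 genotypes and -0.08 to 0.07 for differently numbered ones. They show no sign of pairing but cannot exclude it. With a replicate block Pla2g2a was called (log2 fold change 0.85, adjusted p = 0.0479, limma) and 1059 genes were lower. Lyz1 gave 0.11 to 0.42 without single libraries. The members called were 4 to 5 higher and 0 lower without single libraries.

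Over the whole table, 719 to 1154 genes were higher and 853 to 2868 lower when single libraries were left out, the latter being 985, 2868 and 1116 without RhoB-/- replicates 1, 3 and 5 and 950 and 853 without WT replicates 2 and 4. Lower genes numbered 2979 relative to the goblet cell markers, 10368 relative to the colonocyte markers, 3729 without mitochondrial genes and 1072 at the study's threshold. Higher genes numbered 283 relative to the colonocyte markers, 2010 centred on the median deviation, 1587 with quantile normalization and 612 without both libraries. Of the lists, relative to the colonocyte markers 1 goblet marker was higher and 12 lower, 4 colonocyte markers were lower, 0 immune markers were higher, 10 defence genes were lower, and 1 regulator was higher and 12 lower. These follow from a centring that moves the median of all genes to -0.82. Centred on the median deviation, 5 goblet markers and 11 regulators were higher and 1 defence gene was lower. Quantile normalization gave 9 higher regulators and 1 lower defence gene, no filter 1 lower defence gene, and leaving out mitochondrial genes 8 higher regulators and 1 lower colonocyte marker. Without both libraries 1 colonocyte marker and 1 defence gene were lower. Without single libraries, lower colonocyte markers were 0 to 1, lower defence genes 1 to 3 and higher regulators 4 to 8. The causes were not tested.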
